A study of Homo sapiens with 48 samples.

Results

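The comparison described here asks how fast RNAs disappeared once transcription was stopped, in cells depleted of CNOT1 and in cells that kept it. It takes for each RNA the slope of its log2 level over 0, 3, 6 and 12 h of triptolide in CNOT1-AID cells and subtracts the slope in parental cells. It rests on 16 of the 48 libraries of the series, 8 from each line with 2 per time, and 16858 genes had enough counts to be tested. All cells were DLD-1, a human colorectal cancer line, labelled TIR1+, a plant receptor that, with auxin, sends any protein carrying the matching tag (AID, for auxin-inducible degron) for destruction. In CNOT1-AID cells the degron sat on the CNOT1 gene, and the parental line was untagged. Every library, parental ones included, came from cells given 1 mM auxin for 2 h and then 1 µM triptolide for 0, 3, 6 or 12 h, so auxin itself is shared by both arms. Another line, CNOT4-AID, was treated in the same way (8 libraries) and serves to share the estimate of spread, to sort mRNAs by half-life, as a described comparison of slopes and to test whether a difference also stands against another tagged line. How many clones each line represents, and whether the 2 libraries of a group came from separate cultures, is not given in the sources used here. The p-values therefore rest on how far the libraries of a group differ, possibly for technical reasons. Those of slopes also take in how far the levels of a line depart from a straight line over time.

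The CCR4-NOT complex is built on CNOT1, which holds the deadenylases CNOT6, CNOT6L, CNOT7 and CNOT8. The complex shortens poly(A) tails, which exposes an mRNA to decapping and decay from its ends, and RNA-binding proteins and microRNA effectors bring it to chosen mRNAs. Triptolide blocks the start of transcription by RNA polymerase II, so that the level of an mRNA afterwards follows its decay. A slope is given in log2 units per hour: a difference above 0 means slower loss in CNOT1-AID cells, and one below 0 means faster loss, or a fall where parental cells showed a rise.

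The 16 libraries held 18216427 to 26723618 counts, of which 0.941% to 2.11% were ERCC spike-in RNA. Levels below are library-size-normalised counts (CPM) scaled to the spike-in. They are not corrected for gene length, so they compare libraries and not genes. The spike-in was added to a fixed 500 ng of total RNA, so a level is relative to total RNA and not to cells, and less RNA per cell cannot be told apart from fewer cells. The 2 parental libraries at 0 h agreed least (r 0.943 of log2 levels, against 0.994 to 0.998 in the other 7 pairs), and spike-in scaling placed the 2 parental libraries at 6 h far apart (relative sizes of 1.25 and 0.753, against 0.974 and 0.975 by TMM). Colon epithelial markers were present in the steady-state libraries (10 of 11 with a mean of at least 1 TPM), while 0 of 6 fibroblast, 1 of 5 blood (CD14, 1.00 TPM) and 0 of 4 endothelial markers reached that level. Depletion takes place at the level of protein, and no protein was measured. CNOT1 mRNA (chromosome 16, 58519951 to 58629886, GRCh38) was at 483 and 453 CPM in parental cells at 0 h and at 316 and 315 CPM in CNOT1-AID cells, and its slope did not pass (difference -0.02 ± 0.034 SE, adjusted p = 0.923; with TMM scaling -0.04, which passed as faster, and with ribosomal protein scaling 0.02).

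Loss of mRNA was slowed broadly in CNOT1-AID cells. With spike-in scaling 2603 genes (15.4% of those tested) were lost more slowly and 166 (0.985%) faster, by edgeR's quasi-likelihood test with Benjamini-Hochberg adjustment at 0.05, and the median difference over all genes was 0.02 log2 units per hour. Scaling moves the slopes of all genes together, and with it the split. Trimmed mean (TMM) scaling, which centres the typical gene, gave 3568 slower (21.2%) and 2056 faster (12.2%), and holding ribosomal protein mRNAs constant gave 7575 slower (44.9%) and 204 faster (1.21%). Of the 2603 genes slower with the spike-in, 2596 were also slower with TMM and all 2603 with ribosomal protein scaling, whereas 1727 protein-coding genes were faster with TMM against 6 with the spike-in. The direction of a group near the middle of the distribution therefore depends on the scaling, and that of the fast mRNAs below does not. Without the parental 12 h replicate 2 library the spike-in count was 1664, without CNOT1-AID 12 h replicate 1 it was 1718, and in the other 14 such fits it lay within 1.5 times 2603. Without both parental 0 h libraries 1855 genes were slower (11.0%) and 193 faster (1.14%).

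More genes differed at 12 h than at 3 or 6 h. In a fit with a mean for each line and time, the change since 0 h was higher in CNOT1-AID cells for 493 genes at 3 h (2.92%), 757 at 6 h (4.49%) and 2933 at 12 h (17.4%). It was lower for 21 (0.125%), 130 (0.771%) and 223 (1.32%). When single libraries were left out the count lay between 210 and 688 at 3 h, 432 and 1102 at 6 h, and 1771 and 3119 at 12 h. The median over all genes did not go one way, with 0.23 at 3 h, -0.23 at 6 h and 0.31 at 12 h on the log2 scale with the spike-in, so spike-in scaling shifts the counts of each time differently. At 12 h this median moved from 0.31 with the spike-in to -0.06 with TMM and 0.67 with ribosomal protein scaling.

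Decay rates differed less from one mRNA to the next in CNOT1-AID cells. Over 10229 protein-coding genes with a mean of at least 5 CPM, the middle 50% of slopes spanned 0.110 log2 units per hour in parental cells and 0.128 in CNOT4-AID cells. In CNOT1-AID cells the same span was 0.0244. Slopes below -0.1 were found for 33.8% of genes in parental cells, 68.3% in CNOT4-AID cells and 3.55% in CNOT1-AID cells. The CNOT4-AID share depends on its 12 h libraries, which the spike-in placed at relative sizes of 1.43 and 2.61 (0.776 and 0.814 by TMM). Without replicate 2 there, the genes with a CNOT4-AID half-life of over 12 h went from 2217 to 4200. It is therefore not read as faster loss than in parental cells. At 12 h, 1840 of these genes had under 25% of their 0 h level left in parental cells, and 1581 of the 1840 (85.9%) had 50% or more left in CNOT1-AID cells. Ranked over the genes, slopes of the parental and CNOT4-AID lines went together (Spearman rho 0.977, 10229 genes), and those of the parental and CNOT1-AID lines did so less (rho 0.387). These are descriptions across genes that share libraries.

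**Figure D1:**
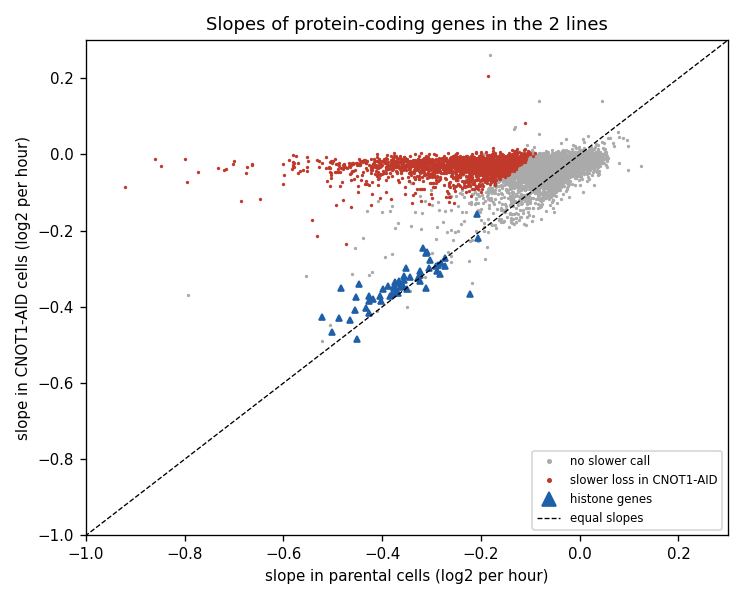
Slope of each protein-coding gene with at least 5 CPM in parental cells (x axis) and in CNOT1-AID cells (y axis), in log2 units per hour of triptolide, from spike-in scaled fits. Points called slower form a band near 0 on the y axis whatever their parental slope, while histone genes (triangles) lie near the dashed line of equal slopes.

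To sort mRNAs by stability without using the libraries compared, half-life classes were taken from the CNOT4-AID line. The class edges were chosen after the data were seen. The 183 mRNAs with a half-life of up to 2 h had a median of 16.5% left at 3 h and 2.40% at 12 h in parental cells, against 97.3% and 78.4% in CNOT1-AID cells. Of them 171 were slower. For the 745 mRNAs of the 2 to 3 h class the medians at 12 h were 7.86% and 78.3%, with 636 slower, and for the 979 of the 3 to 4 h class 19.8% and 80.7%, with 821 slower.

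The contrast faded with stability. Of 2027 mRNAs in the 4 to 6 h class, 605 were slower (37.7% and 80.9% left at 12 h), of 1702 in the 6 to 8 h class 7 (0 to 20 when single libraries were left out), and of the 2372 and 2217 in the classes of 8 to 12 h and over 12 h none. These counts hold for the spike-in. With ribosomal protein scaling 1841, 1351, 1287 and 307 mRNAs of these classes, in the same order, were slower. With TMM 1256, 189, 7 and 0 were slower and 10, 67, 385 and 1183 faster. Whether stable mRNAs were called therefore depends on the scaling. The most stable class had a median of 101% left at 12 h in parental cells and 92.8% in CNOT1-AID cells. Across all 7 classes the median left at 12 h in CNOT1-AID cells lay between 78.3% and 92.8%, and in parental cells between 2.40% and 101%. At 12 h the 2 parental libraries gave medians of 2.53% and 2.12% for the fastest class and the 2 CNOT1-AID libraries 86.9% and 69.8%, so the lines did not overlap there. The count of the 4 to 6 h class depended on single libraries, with 87 without parental 12 h replicate 2, 140 without CNOT1-AID 12 h replicate 1, 241 and 328 without CNOT1-AID 0 h replicates 1 and 2, 254 without parental 12 h replicate 1 and 381 without CNOT1-AID 12 h replicate 2. Without both parental 0 h libraries the 3 fastest classes had 103, 520 and 638 slower calls, of which 102, 517 and 634 were among the calls above, and the 4 to 6 h class had 435, of which 360 were.

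The edges of these classes depend on the 12 h libraries of the CNOT4-AID line, where replicate 2 held 3.92% spike-in and replicate 1 2.25%. Without replicate 2, 186 mRNAs had a half-life of up to 2 h (175 slower) and 4200 one of over 12 h (1 slower), and 827 of 1439 in the 4 to 6 h class and 124 of 1218 in the 6 to 8 h class were slower. Without replicate 1 the fastest class held 356 mRNAs (321 slower), and 227 of 2518 in the 4 to 6 h class and 1 of 2066 in the 6 to 8 h class were slower. In both fits, made with the spike-in, the share called slower was above 80% in the 2 fastest classes and under 0.2% beyond 8 h, while the classes between moved.

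**Figure D2:**
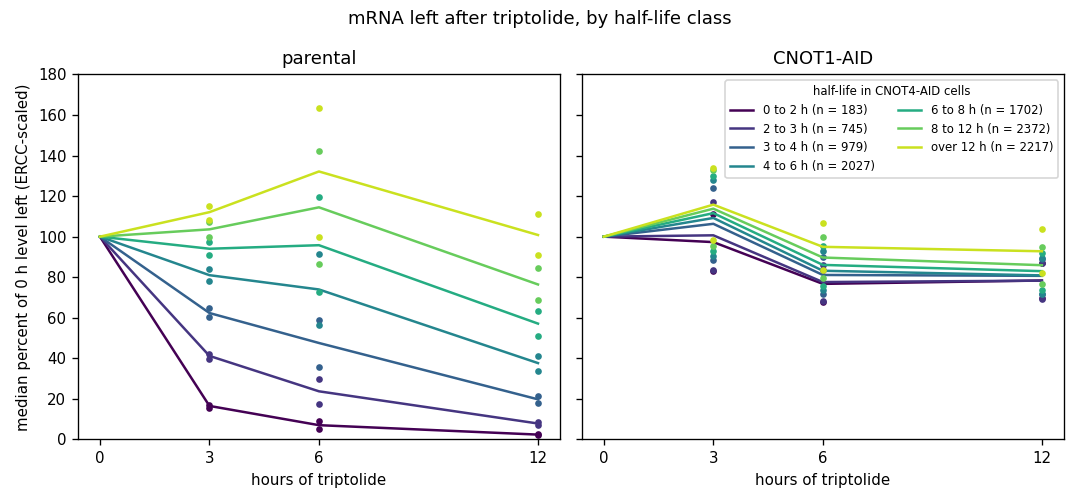
Median percent of the 0 h level left (y axis, spike-in scaled) against hours of triptolide (x axis) for 7 classes of half-life in CNOT4-AID cells, in parental cells (left) and CNOT1-AID cells (right). Lines join medians of the mean of both libraries and dots are the medians in each library; the parental classes fan out to between 2.40% and 101% at 12 h and the CNOT1-AID classes stay between 78.3% and 92.8%.

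Short elements in the 3′ untranslated region (3′ UTR) mark many mRNAs for CCR4-NOT. Pumilio proteins bind the letters TGTANATA (written as DNA) and recruit the complex, and ZFP36-family proteins do so from AU-rich stretches with the core TATTTAT. Both were searched on the transcribed strand of the 3′ UTR of 1 coding transcript per gene (GENCODE 29, GRCh38), and their ends can overlap. The first Pumilio element of the 6 named slower mRNAs with the largest difference that have one, and of 2 subunits of the complex, is shown in capitals with its neighbouring bases, as DNA of the transcribed strand.
ZNF230, chr19:44011465-44011482, + strand: gtTGTACATAtatatggg
KLF2, chr19:16327386-16327409, + strand: tataatatTGTATATAgtgactga
DUSP1, chr5:172768279-172768302, - strand: tactatccTGTAAATAtatcttaa
NFKBIA, chr14:35401569-35401592, - strand: gtaaatggTGTACATAatgtattg
HES1, chr3:194138417-194138440, + strand: actatattTGTATATAttttatat
SPRY2, chr13:80336383-80336406, - strand: tatattttTGTATATAcaataata
CNOT8, chr5:154875631-154875654, + strand: tctgaattTGTAAATAagtcttcc
CNOT2, chr12:70354645-70354668, + strand: tacgaatgTGTATATAttatatat

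A Pumilio element was more frequent among the mRNAs that were lost more slowly. Of 10088 protein-coding genes with a 3′ UTR, it was present in 37.6% of the 351 slower genes with a difference of at least 0.3, in 38.4% of the 986 between 0.15 and 0.3 and in 37.97% of the 885 below 0.15. It was present in 26.4% of the 7865 genes not called, and in 28.9% of all. The share of genes called slower went from 19.2% with no element to 27.7%, 29.7% and 34.3% with 1, 2 and 3 or more. The contrast was present in each of 3 bins of 3′ UTR length, chosen after the data were seen: up to 500 bases, 42.3% of 196 genes with an element were slower against 16.4% of 2498 without. Between 500 and 1500 bases the shares were 39.5% of 671 and 21.9% of 2475, and above 1500 bases 24.3% of 2053 and 19.3% of 2195. Base composition moved with the element as well (in 3′ UTRs up to 500 bases a median of 63.4% A and U with it and 53.9% without), and its part in the contrast was not tested.

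**Figure D3:**
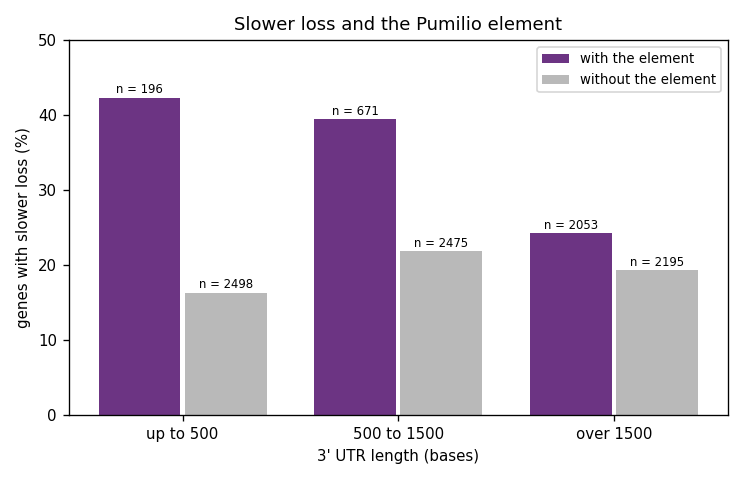
Percent of genes called slower in CNOT1-AID cells (y axis) among protein-coding genes with or without a Pumilio element, in 3 bins of 3′ UTR length in bases (x axis), with the number of genes above each bar. In each bin the share is higher with the element, 42.3% against 16.4% in the shortest bin and 24.3% against 19.3% in the longest.

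The AU-rich heptamer differed less between these groups. It was found in 34.5%, 36.0% and 35.8% of the same 3 slower groups and in 33.8% of genes not called. The share called slower was 21.5% with no copy, 23.0% with 1, 24.5% with 2 and 20.7% with 3 or more. Per 1000 bases of 3′ UTR the heptamer was more frequent in the slower genes with a difference of at least 0.3 (0.456) than in genes not called (0.319), and bins of 3′ UTR length were not made for it. Matches to the let-7 microRNA seed were found in 10.3%, 12.2% and 11.1% of the slower groups and in 10.0% of genes not called. The slower group with the largest differences also had fewer exons (median 4, against 10 in genes not called) and a higher share of G and C at the last codon position (66.8% against 57.6%), although the share called slower was 21.2% to 23.0% in each of 4 equal groups of genes by that measure.

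The largest differences belonged to mRNAs that parental cells lost within hours, and the parental slope is itself part of the difference. ZNF230, a zinc finger gene (chromosome 19, 44002948 to 44013926), was at 11.3 and 8.73 CPM at 0 h in parental cells, 0.910 and 0.653 at 3 h, 0.236 and 0.142 at 6 h, and 0.0397 and 0.0326 at 12 h. In CNOT1-AID cells ZNF230 was at 8.70 and 8.80, 7.44 and 8.47, 4.07 and 6.03, and 9.07 and 7.09 CPM at the same times. The lines overlapped at 0 h and not from 3 h on, and the slopes of ZNF230 differed by 0.85 ± 0.115 (SE, adjusted p = 1.49e-05).

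BAMBI, a decoy receptor of TGF-beta signalling, was at 27.5 and 25.8 CPM in parental cells at 0 h and at 1.43 and 1.96 at 3 h, against 38.5 and 36.6, then 36.2 and 52.0 CPM, in CNOT1-AID cells (difference 0.79 ± 0.106, adjusted p = 1.91e-05). KLF2, a transcription factor of quiescence, had 5.26% of its 0 h level left at 3 h in parental cells and 101% in CNOT1-AID cells (0.82 ± 0.141). NFKBIA, the inhibitor that holds NF-kB in the cytoplasm, was at 54.2 and 39.2 CPM in parental cells at 0 h and 1.34 and 1.67 at 3 h, and at 142 and 141, then 112 and 157 CPM, in CNOT1-AID cells (0.68 ± 0.146, adjusted p = 0.00231). The G-protein regulator RGS16 (0.84), the MAP kinase phosphatases DUSP2 (0.73) and DUSP1 (0.72), the nuclear protein CSRNP1 (0.70), the ring finger gene RNF39 (0.68) and CHAC1, which breaks down glutathione (0.68), complete the 10 largest. All of these slope differences also passed with TMM and ribosomal protein scaling and against CNOT4-AID cells.

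Most of the fall in these fast mRNAs came before 3 h, so a slope to 12 h understates it, and their calls rest on the 0 h level. Without both parental 0 h libraries the calls of KLF2, NFKBIA, RGS16, DUSP1, DUSP2, CSRNP1, RNF39 and CHAC1 ended, while ZNF230 and BAMBI passed. Among the genes named below, the calls of BCL3, IRF1, BBC3, CDKN1B, HES1, SPRY2, MYC, MCL1, ZNF416, ZNF7, NOCT, ZFP36L2, AXIN2, CEBPB and MAPKAPK5-AS1 ended there as well. Several also started higher in CNOT1-AID cells after 2 h of auxin alone, DUSP1 by 2.43 and KLF2 by 2.19 on the log2 scale at 0 h. DUSP1 was at 16.3 and 10.4 CPM in parental cells at 0 h and at 67.5 and 76.6 in CNOT1-AID cells. The slopes compare each line with its own 0 h level.

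**Figure D4:**
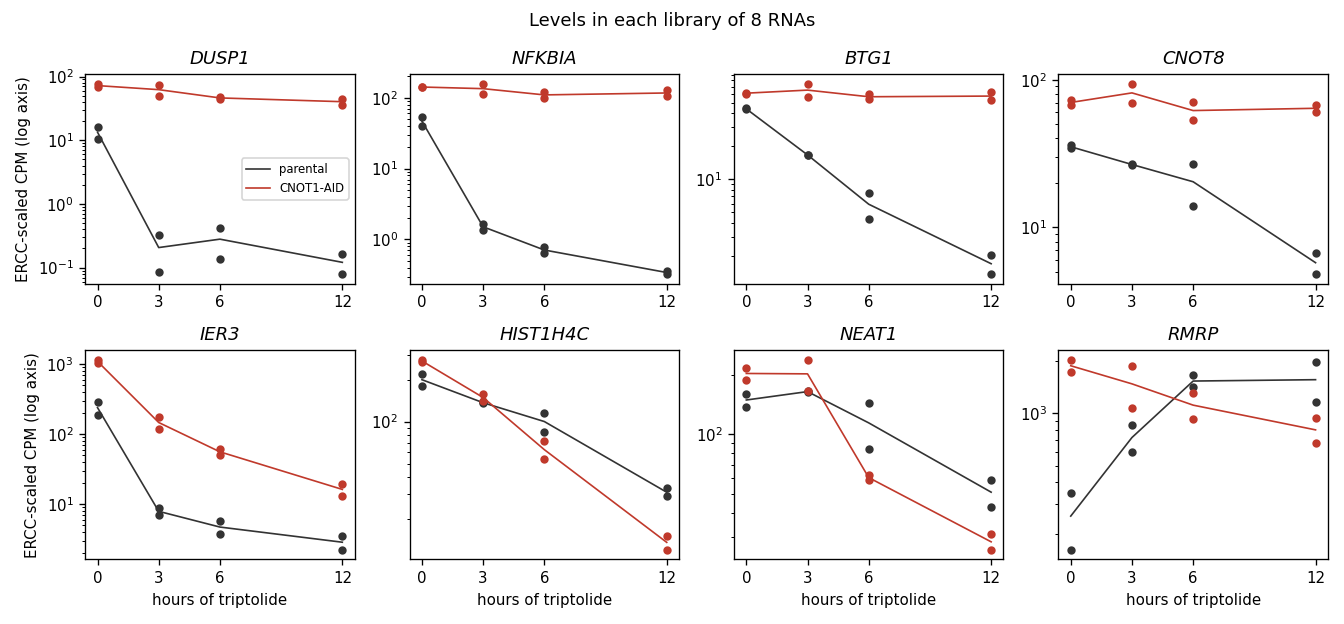
Spike-in scaled level (CPM, log axis, y) against hours of triptolide (x) for 8 RNAs, with a dot for each library and lines through the mean of each pair. BTG1 and CNOT8 dropped in parental cells and stayed near their start in CNOT1-AID cells; DUSP1 and NFKBIA dropped less in CNOT1-AID than in parental cells, with 55.9% of DUSP1 left at 12 h; IER3, HIST1H4C and NEAT1 dropped in both lines, and RMRP went up in parental cells only.

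Immediate early genes, which cells switch on within minutes of a stimulus and clear as fast, had the largest median difference of the 31 lists. The counts of this and the following lists stand beside 15.4% of all genes and 18.8% of the 13110 protein-coding genes called slower. Of 54 tested, 39 were slower and 0 faster, with a median difference of 0.33 against 0.02 over all genes. Their median level at 3 h was 12.6% of the start in parental cells and 97.3% in CNOT1-AID cells. Without both parental 0 h libraries 14 of the 54 were slower. Of 23 NF-kB targets 8 were slower (median 0.09, 4 without both parental 0 h libraries), led after NFKBIA by IRF1 (0.37), NFKBIE (0.29) and BCL3 (0.21). NFKBIE, a further NF-kB inhibitor, was at 21.7 and 13.9 CPM in parental cells at 0 h and 0.636 and 0.423 at 12 h, and went from 25.6 and 25.03 to 9.07 and 7.29 CPM in CNOT1-AID cells. The loss of NFKBIE was slowed, with 32.3% left at 12 h against 2.98%, and was not stopped. IRF1, an interferon regulator, likewise had 33.6% left at 3 h in CNOT1-AID cells and 8.22% in parental cells, a call (adjusted p = 0.0331) that ended without any of 6 single libraries, the parental replicates 1 and 2 at 0 h, 1 at 6 h and 1 at 12 h and both CNOT1-AID ones at 12 h, with values of 0.30 to 0.41.

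Several genes of signalling and growth control were lost more slowly. Of 27 genes of growth factor and receptor signalling 13 were slower (median 0.10), a count that fell to between 4 and 8 without each of 7 single libraries, those of both lines at 12 h, CNOT1-AID at 0 h and parental 0 h replicate 1. HES1, the Notch target, was the largest of them (0.57 ± 0.131), with 3.80% left at 3 h in parental cells and 121% in CNOT1-AID cells. The feedback inhibitor SPRY2 differed by 0.47. Of 18 Wnt targets 11 were slower (median 0.18; 7 without both parental 0 h libraries): MYC (0.52), the ephrin receptor EPHB3 (0.44 ± 0.069, adjusted p = 7.22e-05), the transcription factor SP5 (0.42) and AXIN2 (0.39), which brakes the pathway. AXIN2 was at 774 and 446 CPM in parental cells at 0 h, 72.6 and 72.2 at 3 h and 16.1 and 14.8 at 12 h, and at 1270 and 1398, 1187 and 1597, and 1225 and 965 CPM in CNOT1-AID cells. The parental libraries of AXIN2 did not overlap between 0 and 3 h, and the CNOT1-AID ones did.

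Of 32 cell cycle regulators 18 were slower (median 0.12), and they included inhibitors and drivers of the cycle alike. WEE1, the kinase that holds cells before mitosis, was at 128 and 167 CPM in parental cells at 0 h, 36.2 and 37.3 at 3 h and 2.66 and 2.80 at 12 h, against 242 and 259, 201 and 293, and 213 and 176 CPM in CNOT1-AID cells (0.44 ± 0.054, adjusted p = 2.4e-06). The inhibitor CDKN1B (0.47), the repressor E2F8 (0.33 ± 0.038, adjusted p = 1.37e-09) and PLK1, a mitotic kinase (0.30 ± 0.038), were slower as well. PLK1 had 6.76% left at 12 h in parental cells and 87.4% in CNOT1-AID cells. Of 26 p53 targets 12 were slower (median 0.11), with SESN2, a sensor that restrains mTOR, at 0.46 ± 0.062 (adjusted p = 1.28e-05) and the antiproliferative BTG2 at 0.45. The p53 count fell to 6, 4 and 7 without parental 12 h replicate 2 and CNOT1-AID 12 h replicates 1 and 2, and to 6 without both parental 0 h libraries. Of 18 cell death regulators 7 were slower (3 without both parental 0 h libraries), among them the survival factor MCL1 (0.34) and its opponents BBC3 (0.29), BMF (0.24) and BCL2L11 (0.16).

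Zinc finger genes, most of which code for DNA-binding repressors, formed the largest list with slowed loss. Of 389 tested, 201 were slower and 0 faster (median 0.15), and 99 were slower without both parental 0 h libraries. Their median level at 3 h was 48.2% of the start in parental cells and 98.7% in CNOT1-AID cells. After ZNF230 the leading members were ZNF416 (0.68), ZNF7 (0.49) and ZNF48 (0.47 ± 0.067, adjusted p = 3.44e-05). ZNF416 was at 14.2 and 15.3 CPM in parental cells at 0 h and 0.780 and 0.531 at 3 h, and at 24.6 and 26.9, then 19.5 and 24.6 CPM, in CNOT1-AID cells.

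**Figure D5:**
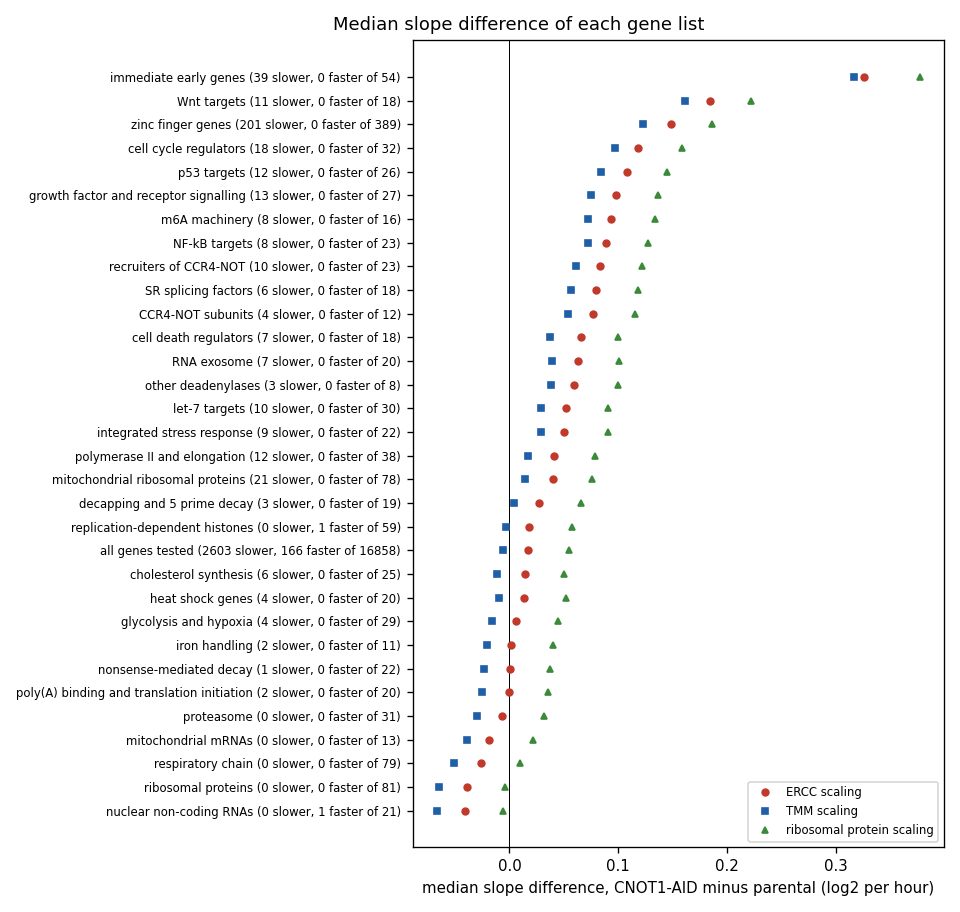
Median slope difference (x axis, log2 units per hour, CNOT1-AID minus parental) of 31 gene lists and of all genes tested, under 3 scalings, with the number of members called slower and faster with spike-in scaling beside each name. Immediate early genes, Wnt targets and zinc finger genes lie furthest to the right under each scaling. The lists near the bottom change sign with the scaling, except nuclear non-coding RNAs, which lie below 0 under all 3, and ribosomal protein genes. The latter lie below 0 with the spike-in and TMM, and ribosomal protein scaling holds their own median near 0 (-0.004).

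Some mRNAs of the CCR4-NOT complex itself were lost more slowly. Of 12 subunits tested, 4 were slower and 0 faster (median 0.08), beside 18.8% of protein-coding genes. Without parental 12 h replicate 2, 2 of the 12 were slower, beside 1586 of 13110 protein-coding genes. These counts are small and are not read as an excess. CNOT8, a deadenylase (chromosome 5, 154857553 to 154876793), was at 34.2 and 36.0 CPM in parental cells at 0 h, 26.8 and 26.4 at 3 h, 13.999 and 26.7 at 6 h, and 6.68 and 4.82 at 12 h. In CNOT1-AID cells CNOT8 was at 66.9 and 73.3, 69.1 and 93.6, 52.9 and 70.6, and 67.9 and 60.2 CPM, higher than parental at every time and close to its start at 12 h (difference 0.20 ± 0.036, adjusted p = 3.25e-05). The scaffold partner CNOT2 (0.17 ± 0.036), the ubiquitin ligase CNOT4 (0.14 ± 0.036, adjusted p = 0.00247) and the deadenylase CNOT6L (0.12 ± 0.035) were the other slower ones. CNOT4 lost its call without parental 12 h replicate 2 (0.12) and CNOT6L without either parental 12 h library (0.11 each).

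The remaining subunits did not pass with the spike-in. TNKS1BP1, a complex-bound protein (0.10, adjusted p = 0.0777), CNOT10 (0.08), CNOT11 (0.07) and CNOT9 (0.07) all passed as slower with TMM and ribosomal protein scaling. The deadenylases CNOT6 (0.02) and CNOT7 (0.00) and the scaffold partner CNOT3 (0.02) were near 0 and changed sign with TMM (-0.001, -0.02 and -0.01). CNOT7 had 84.8% left at 12 h in parental cells and 91.8% in CNOT1-AID cells, while its close relative CNOT8 had 16.4% and 91.3%. The 4 slower subunits were those with the least left at 12 h in parental cells, from 16.4% of CNOT8 to 29.7% of CNOT4, next to 30.0% of TNKS1BP1. The parental slope is part of the difference, so this order is in part built into the calls.

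Of 23 factors that recruit the complex 10 were slower (median 0.08). BTG1, an adaptor that binds the deadenylases, was at 43.5 and 44.6 CPM in parental cells at 0 h, 16.8 and 16.6 at 3 h, 4.34 and 7.51 at 6 h, and 2.03 and 1.37 at 12 h. In CNOT1-AID cells BTG1 was at 62.0 and 60.4, 56.2 and 74.4, 53.6 and 60.0, and 62.5 and 52.7 CPM (0.38 ± 0.038, adjusted p = 5.44e-11). BTG2 (0.45 ± 0.078), the AU-rich element binding protein ZFP36L2 (0.34) and the adaptor TOB1 (0.33 ± 0.034, adjusted p = 2.06e-10) were slower too. Among 8 genes listed as other deadenylases, whose activity was not measured, NOCT (0.31), TOE1 (0.20) and PDE12 (0.17) were slower. Of 19 decapping and 5′ decay factors 3 were, no more than the 18.8% of protein-coding genes, the 4E-T protein EIF4ENIF1 (0.26 ± 0.046), DCP1B (0.25 ± 0.042) and DCP1A (0.15 ± 0.034). Of 20 exosome components and cofactors 7 were, with the nuclear cofactors RBM7 (0.22 ± 0.036) and ZCCHC8 (0.22 ± 0.035) in front, and 4 without parental 12 h replicate 2. Of 22 nonsense-mediated decay genes 1 was slower, SMG8 (0.37 ± 0.046, adjusted p = 2.72e-07), with 33.0% left at 3 h in parental cells and 101% in CNOT1-AID cells.

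Regulators of RNA modification, splicing and transcription were slowed in part. Of 16 genes of the m6A machinery, which marks many mRNAs for decay, 8 were slower (5 without parental 12 h replicate 2), led by its readers YTHDF2 (0.28 ± 0.036, adjusted p = 4.64e-08) and YTHDF1 (0.25 ± 0.034) and the writer subunit WTAP (0.22). YTHDF2, which itself recruits CCR4-NOT, was at 162 and 163 CPM in parental cells at 0 h and 16.5 and 14.3 at 12 h, against 228 and 251, then 263 and 214 CPM, in CNOT1-AID cells. Of 38 genes of RNA polymerase II and elongation 12 were slower, with CDK7, a kinase of the initiation factor that triptolide acts on, at 0.29 ± 0.041 and the bromodomain gene BRD2 at 0.22 ± 0.044. Of 18 splicing factors of the SR family and their kinases 6 were slower (3 without parental 12 h replicate 2, and 3 without CNOT1-AID 12 h replicate 1), SRSF4 (0.19 ± 0.034) and SRSF5 (0.17 ± 0.036) among them. Of 30 let-7 targets 10 were slower, COIL (0.31 ± 0.037, adjusted p = 4.33e-09) and the transcription factors PLAGL2 (0.24) and E2F2 (0.24) after MYC.

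Stress and metabolic genes held slower calls as well. For heat shock, iron handling and cholesterol genes the counts were near the 18.8% of protein-coding genes. Among those with at least 5 CPM and a 3′ UTR 22.0% were slower, and mitochondrial ribosomal protein genes (21 of 78) lay little above that. Of 20 heat shock genes 4 were slower (2 without CNOT1-AID 12 h replicate 1, and 2 without both parental 0 h libraries), with the co-chaperone DNAJB1 at 0.44 ± 0.071 (adjusted p = 0.000153). Of 22 genes of the integrated stress response 9 were slower (5 without both parental 0 h libraries), including SESN2 and CEBPB (0.45). Of 25 cholesterol genes 6 were, among them squalene epoxidase SQLE (0.25 ± 0.044) and INSIG1, which restrains the pathway (0.19 ± 0.033). Of 11 genes of iron handling 2 were, heme oxygenase HMOX1 (0.27 ± 0.039, adjusted p = 3.89e-07) and the iron regulator IREB2 (0.12), whose call ended without either parental 12 h library or without CNOT1-AID replicate 1 at 0 h or at 12 h (0.09 to 0.12). Of 78 mitochondrial ribosomal protein genes 21 were slower, with MRPL44 at 0.32 ± 0.033 (adjusted p = 1.22e-10), a count that fell to 8 without parental 12 h replicate 2 and to 7 without CNOT1-AID 12 h replicate 1. In the first of these fits 1586 of the 13110 protein-coding genes were slower. MRPL44 had 6.74% left at 12 h in parental cells and 102% in CNOT1-AID cells.

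Stable housekeeping mRNAs and mitochondrially encoded mRNAs gave no slower call with the spike-in. Among 81 ribosomal protein genes, 79 respiratory chain genes, 31 proteasome genes and 13 mitochondrially encoded mRNAs, 0 were called in either direction with the spike-in (median differences of -0.04, -0.03, -0.01 and -0.02). Ribosomal protein mRNAs had a median of 118% left at 12 h in parental cells and 92.6% in CNOT1-AID cells. Mitochondrially encoded mRNAs rose in both lines, to medians of 163% in parental and 158% in CNOT1-AID cells at 12 h. Their slopes are therefore not read as loss or stability. With TMM scaling 71 of the 81 ribosomal protein, 52 of the 79 respiratory chain and 12 of the 31 proteasome genes were faster. With ribosomal protein scaling 18 of the 31 proteasome genes and 0 of the 13 mitochondrially encoded mRNAs were slower. Slower and faster calls then numbered 13 and 3 for the 79 respiratory chain genes, and 11 and 4 for the 81 ribosomal protein genes. The latter were scaled to their own list, so their calls show spread around its centre. The calls for these lists therefore depend on what is held constant. Of 20 genes of poly(A) binding and translation initiation 2 were slower, LARP4B (0.18 ± 0.034) and the cap-binding protein EIF4E (0.10, adjusted p = 0.0449), and the EIF4E call ended without any of 12 single libraries (0.08 to 0.11) and under 3 other settings.

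Replication-dependent histone mRNAs were nearly gone at 12 h in both lines. These mRNAs end in a stem-loop in place of a poly(A) tail, and the libraries were made from total RNA, which holds them. Of 59 histone genes tested 0 were slower and 1 was faster, with a median of 4.54% left at 12 h in parental cells and 5.80% in CNOT1-AID cells. With TMM scaling 1 was slower and 2 faster, and with ribosomal protein scaling 27 were slower and 1 faster. HIST2H2AA4 was at 467 and 387 CPM in parental cells at 0 h and 38.8 and 44.9 at 12 h, and at 620 and 643, then 63.7 and 51.2 CPM, in CNOT1-AID cells (difference -0.003 ± 0.036, adjusted p = 0.99). Counting could split reads between this gene and the near-identical HIST2H2AA3, and likewise for other histone copies.

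The stem-loop is read by a binding protein of its own, and its letters were searched as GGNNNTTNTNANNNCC on the transcribed strand. The stretches below show it in 4 histone mRNAs, chosen after the values were seen, with the stem-loop in capitals.
HIST2H2AA4, chr1:149851568-149851595, + strand: tcaaaaGGCTCTTTTCAGAGCCacccac
HIST2H3C, chr1:149840686-149840713, - strand: ccaaaaGGCTCTTTTCAGAGCCacccac
HIST2H4A, chr1:149833026-149833053, + strand: cccaaaGGCCCTTTTTAGGGCCgaccac
HIST2H2BF, chr1:149811879-149811906, - strand: cccaaaGGCTCTTTTCAGAGCCacttca

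Of 57 histone genes with at least 5 CPM, 56 had under 25% left at 12 h in CNOT1-AID cells, out of 123 protein-coding genes in all with so little left there. The pattern was found in 24 of the 31 of these histone genes that have an annotated 3′ UTR (77.4%), in 2 of the 65 other genes of the 123 that have one (3.08%), and in 285 of the 9992 genes with 25% or more left (2.85%). The linker histone HIST1H1B was at 221 and 116 CPM in parental cells at 0 h and 8.23 and 8.86 at 12 h, and at 213 and 229, then 16.8 and 10.96 CPM, in CNOT1-AID cells (0.01 ± 0.040, adjusted p = 0.944). HIST1H4C was the 1 histone gene called faster: it went from 220 and 179 to 29.1 and 33.2 CPM in parental cells and from 277 and 267 to 15.2 and 12.0 CPM in CNOT1-AID cells (-0.14 ± 0.035, adjusted p = 0.00163). Without both parental 0 h libraries 3 histone genes were called slower.

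A further 67 mRNAs had under 25% left at 12 h in CNOT1-AID cells, of which 3 were called slower and 0 faster. They were picked by their level in these libraries, so they are described without a test of the group. They included 9 of 49 immediate early genes with at least 5 CPM. IER3, a stress-induced survival factor (chromosome 6, 30743199 to 30744554), was at 290 and 188 CPM in parental cells at 0 h, 8.79 and 6.98 at 3 h and 3.50 and 2.21 at 12 h. In CNOT1-AID cells IER3 started at 1038 and 1149 CPM and was at 120 and 173 at 3 h and 19.4 and 13.0 at 12 h (0.03 ± 0.137, adjusted p = 0.969). So IER3 stayed above parental levels at each time and dropped in both lines, with 3.30% left at 3 h in parental cells and 13.4% in CNOT1-AID cells.

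GADD45B, a stress sensor, had 4.61% left at 3 h in parental cells and 4.84% in CNOT1-AID cells (0.06 ± 0.162, adjusted p = 0.943). PPP1R15A, which ends the integrated stress response, had 6.05% and 12.3% (0.15 ± 0.123), and NFKBIZ, a nuclear cofactor of NF-kB, 12.9% and 15.0% (-0.02 ± 0.105). ZC3H12A, an endonuclease that cuts inflammatory mRNAs, had 16.5% and 18.9%, and the transcription factor JUN 11.1% and 27%. Their standard errors, from 0.097 for JUN to 0.162 for GADD45B, were wider than those of BTG1 and TOB1 (0.038 and 0.034). Such errors hold departure from a straight line as well as spread between libraries, and the part of each was not tested. IER3 has 4 AU-rich heptamers in its 3′ UTR and PPP1R15A has 1, as do KLF2 and DUSP2, which were slower. They are shown with the heptamer in capitals because the same letters stand in mRNAs of both kinds.
IER3, chr6:30743656-30743678, - strand: ctaattaaTATTTATatgtattt
PPP1R15A, chr19:48875996-48876018, + strand: ttattaacTATTTATtttttcta
KLF2, chr19:16327104-16327126, + strand: gtgactggTATTTATtggaccca
DUSP2, chr2:96143211-96143233, - strand: gcactttaTATTTATacagaaca

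Faster calls fell mainly on small non-coding RNAs. Of the 166, 6 were protein-coding (of 13110 tested), while 75 of 111 small nucleolar RNAs, 23 of 58 small nuclear RNAs and 9 of 39 genes of the class misc_RNA were faster and 0 of these slower. The small nucleolar count was 43 without parental 12 h replicate 2 and 57 without both parental 0 h libraries. In the fit without 12 h, 10 small nucleolar, 5 small nuclear and 0 misc_RNA genes were faster, so most of these calls rest on 12 h. Slopes of each line are not given for these classes, so the counts do not separate loss in CNOT1-AID cells from a rise in parental cells. Reading a slope as decay also applies to RNAs made by RNA polymerase II, and which polymerase makes each of these RNAs was not examined. The protein-coding count was 14 and 12 without parental 0 h replicate 1 and 6 h replicate 2, and 3 without parental 12 h replicate 1. RMRP, the RNA of a ribosomal RNA processing enzyme, was at 163 and 348 CPM in parental cells at 0 h and at 1160 and 1974 at 12 h, and at 2039 and 1733, then 936 and 672 CPM, in CNOT1-AID cells (-0.31 ± 0.064, adjusted p = 0.00153). The telomerase RNA TERC (-0.17 ± 0.052, adjusted p = 0.0187) had the same pattern, with 293% of its 0 h level at 12 h in parental cells and 68.5% in CNOT1-AID cells. In both, the negative difference includes a higher level with time in parental cells, and both started higher in CNOT1-AID cells.

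NEAT1, the RNA scaffold of paraspeckles, had 34.0% left at 12 h in parental cells and 13.97% in CNOT1-AID cells (-0.12 ± 0.040, adjusted p = 0.0283), a call that ended without either parental 0 h library, parental 12 h replicate 1 or CNOT1-AID 12 h replicate 2 (-0.10 to -0.12). TERC's call ended without parental 0 h replicate 1 (-0.15), and both ended without the 2 parental 0 h libraries together. Of 817 antisense RNAs 42 were slower and 7 faster, and of 734 long intergenic RNAs 38 and 8, such as LINC00339 (0.26 ± 0.044, adjusted p = 1.07e-05) and MAPKAPK5-AS1 (0.19 ± 0.043). Without both parental 0 h libraries 11 antisense RNAs were slower and 15 faster, and 12 and 20 long intergenic RNAs, so which direction held more calls turned. The slower antisense count was 19 without parental 0 h replicate 1, 22 without CNOT1-AID 12 h replicate 1, and 26 without parental 12 h replicate 2 and without CNOT1-AID 12 h replicate 2. The slower long intergenic count was 20, 16 and 21 without the first 3 of these. The faster counts were 1 and 5 without parental 12 h replicate 1, and that of long intergenic RNAs was 17 without parental 0 h replicate 1. Whether counting used strand is not given in the sources used here, so an antisense RNA and its partner may share reads.

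Slower loss went with higher levels at steady state in separate libraries. In CNOT1-AID cells without triptolide, 8 h of auxin raised 4933 of 14921 genes (33.1%) and lowered 4441 (29.8%), by limma on log2(TPM + 0.5) with 2 libraries per group. The contrast is with untreated CNOT1-AID cells. The response of parental cells to auxin was not subtracted, so effects of auxin itself may be included. Of 2549 slower genes tested in both sets, 2069 (81.2%) were higher and 135 (5.30%) lower, while of genes not called in either direction 24.6% were higher and 36.8% lower. Read the other way, 42.3% of the 4888 genes higher at 8 h were slower and 3.09% of the 4373 lower ones, against 18.1% of all genes in both sets. By half-life class the share higher at 8 h went from 91.2% in the class of up to 2 h to 8.30% in that of over 12 h. Scaled to the spike-in, 91.3% of the slower genes were higher and 1.69% lower, and of genes not called 46.8% were higher and 11.8% lower.

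Slopes also differed from those of another tagged line. Against CNOT4-AID cells the slope was higher in CNOT1-AID cells for 7168 genes (42.5%) and lower for 38 (0.225%), and 2583 of the 2603 slower genes (99.2%) passed there too. Of the 166 faster RNAs, 29 (17.5%) passed against CNOT4-AID cells, and RMRP, TERC and NEAT1 did not (adjusted p = 0.601, 0.438 and 0.231). Both contrasts use the same CNOT1-AID libraries. With TMM scaling 3811 genes were higher against CNOT4-AID cells and 2736 lower. Without CNOT4-AID 12 h replicate 2, which spike-in scaling placed far from replicate 1 (relative sizes of 2.61 and 1.43, against 0.814 and 0.776 by TMM), 4885 genes were higher and 38 lower, and 2561 of the 2603 slower genes passed there. Without replicate 1 at 12 h 9454 were higher and 11 lower.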

How the data were processed

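RNA was measured by total RNA sequencing with ERCC spike-in added to 500 ng of RNA, 2 libraries per line and time, per the labels' protocols. The deposited triptolide table holds raw counts per gene, and the deposited steady-state table holds TPM. Per the submitters' processing notes, the tools were featureCounts, SAMtools, DESeq2, RSEM and STAR 2.5.1b on GRCh38, and the role of each is not stated. Levels divide counts by an effective library size from the spike-in (56 of 92 sequences, with a mean of at least 10 counts). Slopes were fitted by edgeR 4.0.16 (robust quasi-likelihood, 18 residual degrees of freedom) to all 24 triptolide libraries with a line-by-hours term, after filterByExpr. Changes since 0 h came from a fit of 12 groups. Standard errors are the log2 value divided by the root of F. Steady-state TPM were scaled by TMM and tested with limma 3.58.1 (pseudocount 0.5, at least 1 TPM in 2 libraries). Adjusted p-values are Benjamini-Hochberg over all genes, with a threshold of 0.05. R 4.3.3 was used, and the fits were tested on simulated data. Total counts of 18216427 to 26723618 per library and 2 libraries per group set the precision.

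The genes, lists and edges were chosen with earlier results of these data known. Genes were named by rule among those called, with a mean of at least 5 CPM and the same sign in each replicate alone: the 10 largest positive and the 10 largest negative protein-coding differences with a negative parental slope (1 gene met the latter), the 5 largest negative ones with a positive slope (0 met it), the 3 largest in each direction among long non-coding RNAs, up to 4 called members of each of 31 lists, and all CCR4-NOT subunits. The histone genes, IER3 and the other mRNAs still lost in CNOT1-AID cells were chosen after their values were seen. Of 10229 protein-coding genes with at least 5 CPM, 10088 (98.6%) had a 3′ UTR in GENCODE 29. Alternatives covered scaling, filters, times, single libraries (those of the CNOT1-AID minus CNOT4-AID contrast added after the data were seen), DESeq2 1.42.0 and a replicate block. All 24 steady-state libraries entered the filter, the scaling and the estimate of spread of that set, and the marker means. Only the CNOT1-AID ones at 8 h were compared.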

Additional observations from a re-analysis of the deposited data

Results flagged for a closer look

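The CNOT1-AID and CNOT4-AID lines were given the same auxin and triptolide treatment, and their slopes were compared directly in 1 model over all 24 triptolide libraries. The slope was higher in CNOT1-AID cells for 7168 genes and lower for 38, by edgeR's quasi-likelihood test with Benjamini-Hochberg adjustment. The counts depend on the scaling, with 3811 and 2736 by TMM, and on the 12 h libraries of the CNOT4-AID line, with 4885 and 38 without replicate 2.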

How the results depend on the processing

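With TMM the number of faster genes was 2056, the CNOT1-AID minus CNOT4-AID contrast gave 3811 higher and 2736 lower, and the change since 0 h gave 1099 higher and 48 lower at 3 h, 2404 and 582 at 6 h and 2640 lower at 12 h. With ribosomal protein scaling 7575 genes were slower, 87 were lower against CNOT4-AID, and the change since 0 h was higher for 1671, 3955 and 7762 genes at 3, 6 and 12 h. Total counts alone gave 4816 slower and 577 faster, a mean of at least 5 CPM gave 69 faster, the fit without 12 h gave 736 and 42, and that without 0 h gave 1665 slower. Steady-state values scaled to the spike-in gave 7762 higher and 1457 lower. With single libraries left out, slower genes numbered 1664 to 2777 and faster ones 117 to 175. The change since 0 h was then higher for 210 to 688 and lower for 10 to 46 genes at 3 h, 432 to 1102 and 70 to 181 at 6 h, and 1771 to 3119 and 165 to 277 at 12 h, the CNOT1-AID minus CNOT4-AID contrast gave 4885 to 9454 higher and 11 to 62 lower (added after the data were seen), and the steady-state counts were 4457 to 4768 and 3896 to 4151. Summed spike-in counts gave 3169 and 162, no filter 2505 and 213, the 16 libraries alone 3024 and 177, DESeq2 2716 and 165, and leaving out 6 h, added after the data were seen, 2318 and 132.

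Near 0, 4 subunits that did not pass changed sign. CNOT3 was -0.0092 with TMM, -0.0074 without 0 h, -0.024 without parental 0 h replicate 1 and -0.00016 without parental 12 h replicate 2. CNOT6 was -0.0013 with TMM, -0.045 without 12 h and -0.0049 without parental 12 h replicate 2. CNOT7 was -0.016 with TMM, -0.073 without 12 h, -0.023 without parental 12 h replicate 2, and -0.00045 and -0.0092 without CNOT1-AID replicate 1 at 0 h and at 12 h. CNOT1 was 0.023 with ribosomal protein scaling, 0.017 without 0 h and 0.0092 without both parental 0 h libraries. With single libraries left out, CNOT3 lay between -0.024 and 0.046, CNOT6 between -0.0049 and 0.035 and CNOT7 between -0.023 and 0.021. The causes were not tested. Of the 106 named genes, 43 lost their call without 12 h, 25 without 0 h and 39 without both parental 0 h libraries, where fewer libraries were fitted.

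With the replicate number as a block 2505 genes were slower and 157 faster, and 1 of the 106 named genes, EIF4E, lost its call. Same-numbered libraries of the 2 lines did not deviate together (correlations of -0.295, -0.0217, -0.0616 and -0.0621 at 0, 3, 6 and 12 h), so the numbers were not taken to pair them.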
